A study of Homo sapiens with 8 samples.

Results

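The regions described here are the ac4C peaks of SiHa cells with intact NAT10: 12924 peaks in 7291 gene identifiers, out of 17480 peaks in the deposited lists of the whole series. SiHa is an established cervical carcinoma cell line of squamous origin that carries human papillomavirus DNA. RNA bearing N4-acetylcytidine (ac4C) was enriched with an antibody (the SiHa IP libraries, 2 biological replicates) and sequenced beside RNA that had not been enriched (the SiHa Input libraries, also 2); no drug, time course or further genetic change is given for them. The series also holds 4 libraries of SiHa cells with NAT10 knocked out (labelled KONAT10SiHa), and these were not used. Peaks were taken from the deposited list that carries the name SiHa, on chromosomes 1 to 22, X and MT, after 1 exact repeat and 3 entries on other sequences had been left out.

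N4-acetylcytidine is a cytidine with an acetyl group on its base. The acetyltransferase NAT10 writes it into the small-subunit ribosomal RNA and, with the adaptor THUMPD1, into certain transfer RNAs, and it has been reported in messenger RNA, where it has been linked to transcript stability and translation. An enriched region in such an experiment marks a stretch of RNA recovered with the antibody. It does not name the modified base.

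The list gives 1 pooled call for the SiHa libraries, with a position, a strand, 1 or more blocks, a gene identifier and a p-value from the authors for each peak. Neither read counts nor separate values for the replicates are in it. Depth is thus unknown, no spread between replicates could be set beside any value, and no test was run. Intervals in brackets are 95% exact binomial (Clopper-Pearson) intervals and cover the counting of peaks or genes, nothing else.

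A peak on a transcript's first bases is the clearest case in which sequence can be set beside the list, since RefSeq start sites come with their transcribed sequence. The following stretches of 30 bases begin at RefSeq transcription starts (GRCh38.p14, read 5′ to 3′ on the strand of the gene, T for U), with every cytidine, the base that NAT10 acetylates, in capitals. The first 5 lines are outermost starts of protein-coding genes that lay wholly inside a peak of 1 identifier alone, taken by the smallest deposited p-values with chromosomes 8 and MT not considered. The last 3 are outermost starts of the genes with the most peaks, and no peak reached them.
DDX24: agttgCtgCtgCagCtgaggtaCagCggCg
COPE: gtgtCtttCaggaagaggagCtggtgagaa
DAZAP2: gaCaCggaagtagCtCCgaaCaggaagagg
SPP1: agCagCaggaggaggCagagCaCagCatCg
NFE2L1: aagCggaggCtCCgagCtCtaggCCggCCg
MACF1: atCaCttCtCCCtgggCtCCCaggCCCtCC
DST: gagtCgCagCCtCgtCgCtgtCtgCtgagt
AHNAK2: agtCCgaggtCggCCgCCCgCggCagCgCa

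DDX24 encodes a DEAD-box RNA helicase, and its start lies at chr14:94081173-94081202 on the minus strand. It sat in a peak of 601 bases whose p was listed at 0, and 7 of its first 30 bases are cytidines. COPE, a subunit of the coatomer that coats Golgi vesicles, had the fewest cytidines of these 8 starts, 3 of 30, at chr19:18919358-18919387 on the minus strand, inside a peak of 179 bases with a p of 1e-103. SPP1 encodes osteopontin, a secreted phosphoprotein, and has 22 purines in its first 30 bases (chr4:87975714-87975743, plus strand). DAZAP2 (chr12:51238826-51238855, plus strand) has 22 purines as well. MACF1, the gene with the most peaks, has 15 cytidines in its first 30 bases (chr1:39084167-39084196, plus strand). AHNAK2 has 12 (chr14:104978345-104978374, minus strand), DST has 9 (chr6:56954801-56954830, minus strand), and NFE2L1, a transcription factor of proteasome genes, has 10 (chr17:48048359-48048388, plus strand). Among these examples, the 3 starts outside peaks had 9 to 15 cytidines and the 5 inside peaks 3 to 10. The next such covered start by p, that of PRP4K, had 12, so these ranges hold for the 8 printed starts alone.

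Over the whole list, cytidine was not more frequent in covered starts. RefSeq listed 7310 starts for 4841 named genes with a peak, and in 117 of them the first 50 transcribed bases lay entirely inside a peak. These belonged to 114 genes, 2.36% of the genes examined (1.95% to 2.82%). Cytidine made up 26.5% of the covered bases, against 29.9% in the 7065 starts of peak genes without any peak there and 29.4% in the 22132 starts of all protein-coding genes. Purines made up 56.0%, 52.3% and 52.0% of the same 3 sets. The trinucleotide CCG, searched on the transcribed strand, stood in 67.5% of covered starts, 69.7% of the other starts of peak genes and 62.0% of all protein-coding starts. The spaced pattern CNNCNNCNN, searched in the same way, stood in 59.8%, 63.1% and 61.3%; every occurrence counted, whether or not it overlapped CCG. Overlapping starts of a gene share bases, so these shares are a description of the windows and not of independent sequences.

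Most genes in the list carried a single peak, and a small group carried many. Of the 7291 identifiers, 4312 (59.1%) had 1 peak, 1644 had 2 and 727 had 3. The 2979 identifiers with 2 or more (40.9%, 39.7% to 42.0%) held 66.6% of all peaks. Only 310 had 5 or more, and 17 had 10 or more, of which 16 could be named. Neighbouring peaks of an identifier lay a median of 1016 bases apart, and 11.4% of the 5633 neighbour pairs were within 100 bases of each other. The mean was 1.77 peaks per identifier and the maximum 27. Peaks covered 3.07 Mb of the genome when each base was counted once, and 52.4% of them belonged to identifiers on the plus strand.

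Peaks were short and came in regular steps. The median width, the sum of a peak's blocks, was 181 bases, with quartiles at 178 and 271 and a range from 110 to 2632. Nearly all widths (92.9%) lay within 1 base of a multiple of 30, and 28.4% lay within 1 base of 180. Only 862 peaks (6.67%) reached 500 bases, and 81 reached 1000. Gapped peaks, whose blocks are separated as happens where a peak spans introns, numbered 3257 or 25.2% (24.5% to 26.0%), with a median longest gap of 1780 bases. Gapped and ungapped peaks had the same median width of 181 bases.

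**Figure D1:**
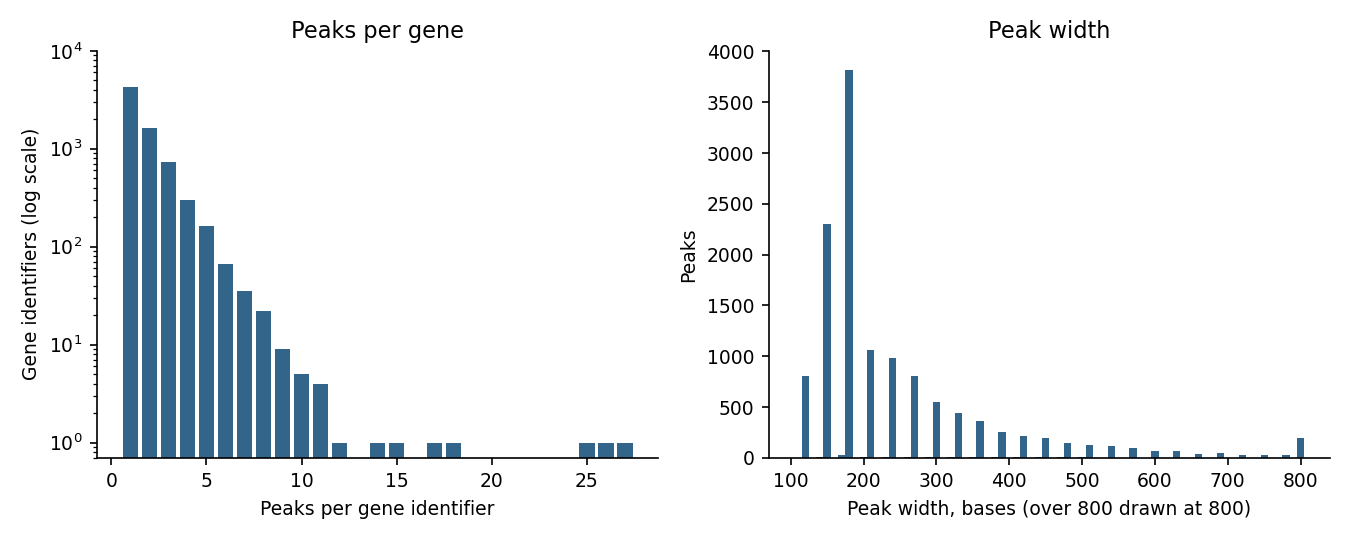
The left panel plots the number of gene identifiers (log scale) against peaks per identifier, and the right panel plots the number of peaks against peak width in bins of 10 bases, with widths over 800 drawn at 800. The left bars fall from 4312 identifiers with 1 peak to single identifiers at the maximum of 27, and the right bars stand at steps of 30 bases with the tallest at 180.

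Longer peaks had smaller p-values. Peaks of at most 151 bases had a median −log10 p of 2.18, those above 151 and up to 181 bases 4.08, those above 181 and up to 300 bases 11.2, those above 300 and up to 600 bases 28.1, and those above 600 bases 126. Spearman's rho between width and strength was 0.74 over the 12924 peaks, which share libraries and are not independent. A p of 0 was listed for 309 peaks in 281 identifiers, and these are ranked above all others without an order among them. The largest p was 0.05, the median 8.9e-07, and 5576 peaks (43.1%) had a p of at most 1e-08. Within genes of 10 or more peaks 63.7% of peaks met that bound, against 39.9% within genes of 1 peak.

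Part of the list describes the same bases more than once. After the other sequences, a second ordered run of 321 entries begins, and 77 of its 188 identifiers also occur in the first run. Of 89 pairs of overlapping peaks of the same identifier, 88 fall across these runs. Different identifiers also shared bases, in 998 pairs that involve 1411 peaks (10.9%). In 432 of these pairs the identifiers lie on opposite strands, 291 of them share at least 90% of the shorter peak, and 175 of those carry the same p. The library kit marks strand, but whether the peak calls used it is not given in the sources used here. Whether reads of a gene and of its antisense partner were kept apart is therefore unknown. Counting pairs on the same and on opposite strands, 20.8% of peaks in named long non-coding RNA genes shared bases with another identifier. In protein-coding genes 3.55% did.

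The identifiers were named by position, through RefSeq gene spans, and 5921 of 7291 (81.2%) received a name. Spans had to lie on the same strand where the strand of the span was known. For 1080 named identifiers no RefSeq start gave that strand, so it was not checked and place was counted along the strand of the peak. The named identifiers held 10667 peaks. Protein-coding genes accounted for 5568 of the names and 10219 peaks, long non-coding RNA genes for 260 names and 332 peaks. The other names were 91 pseudogenes, transcribed or not, and the 2 mitochondrial ribosomal RNA genes. Of the rest, 686 identifiers touched several spans, 348 shared a span, 193 lay outside every span and 143 had too few bases in one. The background for every list below is the share of all 19987 protein-coding genes that carried a uniquely named peak, 27.9%. Among those with a peak, 43.5% had 2 or more, the median was 1 peak and the mean 1.84.

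Genes for very large cytoskeletal and adhesion proteins led the list. MACF1, which links microtubules to actin, had 27 peaks that covered 11513 bases. DST, which encodes the related linker dystonin, had 26 peaks over 9112 bases. AHNAK2, which encodes a giant scaffold protein, had 25 peaks over 11305 bases, and 21 once overlapping peaks were joined. It was the sole gene of the 20 leaders whose count changed on joining. FAT1, an atypical cadherin, had 18 peaks over 6699 bases, and AHNAK, the relative of AHNAK2, had 17 over 5176 bases.

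VCAN encodes the matrix proteoglycan versican and had 15 peaks over 8225 bases. MAP1B, which binds microtubules, had 14 over 6884 bases. SPTBN1 (a beta spectrin), FLNA (filamin A, an actin crosslinker), CHD7 (a chromatin remodeller) and FN1 (fibronectin) had 11 each. MTCL1, NAV1 and EML4, all associated with microtubules, had 10 each, as did THBS1 (the matrix protein thrombospondin) and NRP2 (neuropilin, a receptor for semaphorins). PHF3, TRIP12, PHLDA1 and ZKSCAN1 closed the 20 with 9 peaks each, taken by smallest p from 9 genes with that number. Together the 20 genes held 272 peaks, 2.11% of the list, and 14 of them were also among the 20 with the most covered bases.

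The place of these peaks differed from gene to gene. In DST, AHNAK2, MAP1B and PHF3 every peak lay beyond the midpoint of the span, counted from the 5′ end. The 14 peaks of MAP1B stood between 84.7% and 99.4% of the span. The 17 peaks of AHNAK stood between 11.3% and 25.8%, with none beyond the midpoint. FAT1 had peaks from 12.5% to 99.2%, in a cluster towards the 5′ end and a wider group towards the 3′ end, as the plot of the leading genes shows. VCAN reached from 16.7% to 98.9%. A peak in the last 10% of the span was present in 17 of the 20 genes and a peak in the first 10% in 5. Of the peaks of the 20 genes, 22.1% lay in the last 10%. A gapped peak was present in 19 of the 20, and 14 had at least 1 peak with a p listed at 0.

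**Figure D2:**
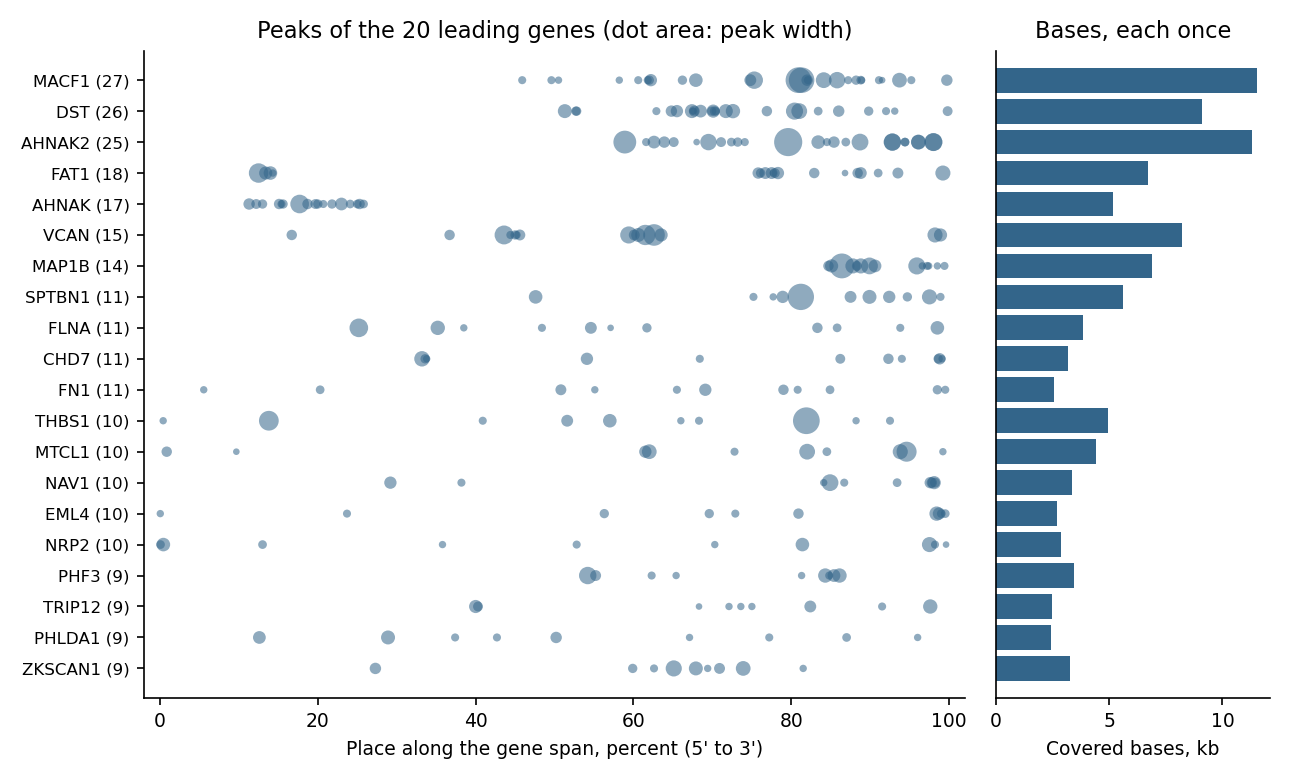
The left panel places each peak of the 20 genes with most peaks along its gene span in percent from the 5′ end (dot area proportional to peak width, number of peaks in brackets), and the right panel gives the bases covered in kb, each base counted once. The dots of MAP1B lie between 84.7% and 99.4% of its span and those of AHNAK between 11.3% and 25.8%, and covered bases run from 2408 in PHLDA1 to 11513 in MACF1.

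Other genes stood out through 1 long peak. The longest of the list, 2632 bases in 16 blocks at chr10:32901515-32933390, lay in ITGB1, the integrin beta subunit shared by many adhesion receptors, and its p was listed at 0. ITGB1 had 2 further peaks, of 210 and 180 bases. PDZD8, a protein of contacts between the endoplasmic reticulum and other organelles, had a peak of 2546 bases. PRICKLE1, a planar polarity protein, had 1 of 2220 bases, and CLDN2, a tight junction protein, had 1 of 2094. The long peak of PRICKLE1 shared bases with a peak of another identifier. Ranked by the longest peak of each named gene, the first 10 genes ended with MAP1B at 1711 bases. In 9 of these 10 genes at least 1 peak had a p listed at 0.

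Short genes were covered most completely. Among named genes with at least 2 peaks, the mitochondrial COX1 led with 96.2% of its span. CLDN4, a tight junction claudin with a span of 1.70 kb on chromosome 7, followed with 90.1%. Its 2 peaks, of 1525 and 1506 bases, overlapped and were 1 after joining. TAF7, a subunit of the general transcription factor TFIID, had 83.4% of its span covered, the mitochondrial ND5 77.1% and the haemoglobin gene HBA2 67.5%. MAB21L2, FJX1, MRFAP1L1 and HBA1 had between 55.3% and 53.3% covered. The longest span among these named genes was that of MAB21L2, 2.54 kb.

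Peaks gathered towards the 3′ ends of genes. Of 10653 peaks placed in 5911 named nuclear genes by their midpoint, 41.1% (40.1% to 42.0%) fell in the last 10% of the span and 7.27% (6.78% to 7.77%) in the first 10%. Of the 10 equal segments of the span, the second held the fewest peaks, 3.91%, and shares then rose from segment to segment up to 13.6% in the ninth. A peak lay in the last 10% in 3019 genes (51.1%), in the first 10% in 678 and in both in 231. By distance, 30.8% of peaks were within 2 kb of the 3′ end and 10.96% within 2 kb of the 5′ end. Spans include introns, and no exon map was used here, so a share per segment is not a share per transcribed base of the mature RNA.

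**Figure D3:**
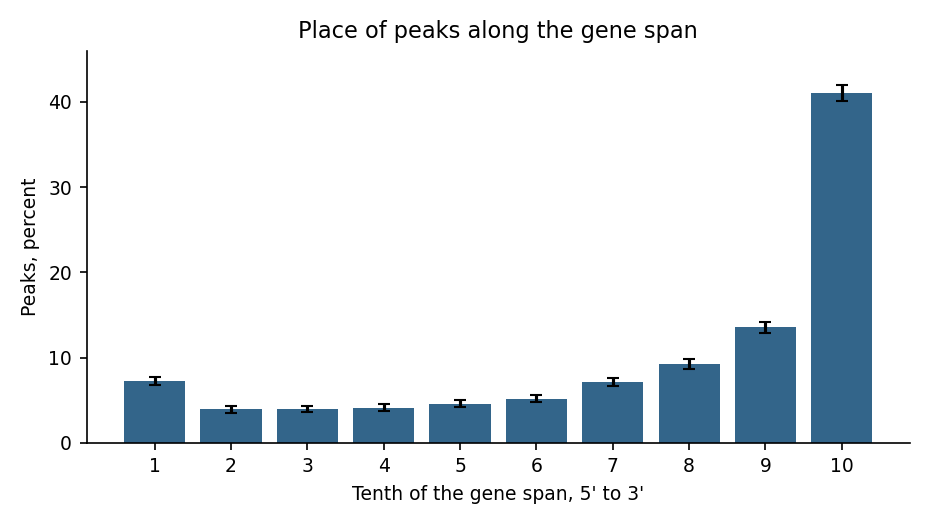
The bars give the percent of the 10653 placed peaks in each of 10 equal segments of the gene span from 5′ to 3′, and the error bars are 95% exact binomial intervals. The last segment stands at 41.1%, the ninth at 13.6% and the first at 7.27%, above its neighbour at 3.91%.

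The 3′ share differed with the kind of peak. Ungapped peaks lay in the last 10% in 46.2% of cases (45.1% to 47.3%) and gapped peaks in 25.7% (24.1% to 27.4%). Gapped peaks were the more frequent in the first 10%, 9.83% against 6.41%. Peaks of at least 600 bases lay in the first 10% in 2.92% of cases (1.52% to 5.04%). In long non-coding RNA genes 19.9% of peaks (15.7% to 24.6%) lay in the last 10%, against 42.0% in protein-coding genes. Genes with 1 peak (41.1%) and genes with 5 or more (40.5%) had similar shares, with intervals that overlap.

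Single genes show the extremes. All 6 peaks of EGFR, the epidermal growth factor receptor, lay in the last 10% of its 192.6 kb span, the strongest at chr7:55205428-55205937 with a p of 1e-288. All 6 of IGF1R, the receptor of insulin-like growth factor, and all 7 of ZNF618 did so too. IRS1, the docking protein that passes on the signal of such receptors, showed the reverse: 6 of its 7 peaks lay in the first 10% and 1 in the last. In CCND1, which encodes cyclin D1, 8 peaks of 3727 bases in all ran from 2.3% to 98.8% of the span. JUN, an AP-1 transcription factor gene, had 4 peaks between 20% and 61.9% of a span of 3.26 kb, and 2 of them had a p listed at 0.

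Longer genes carried a peak more often. Among the shortest 10% of protein-coding genes by span (median 1.64 kb) 9.06% had a named peak, and in the longest 10% (median 249.9 kb) 36.6% did. Of the genes with a peak, 27.6% had 2 or more in the shortest group and 55.4% in the longest. Over the 5560 nuclear protein-coding genes with a peak, Spearman's rho between span and number of peaks was 0.16. The median span was 34.7 kb for all named nuclear genes with a peak and 24.1 kb for all protein-coding genes.

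RNA modification enzymes and readers had the highest share of members with a peak of any list, 33 of 45 genes or 73.3% (58.1% to 85.4%), beside 27.9% of protein-coding genes. NAT10 itself had 1 peak of 359 bases in 3 blocks at chr11:34142274-34146283, at 98.1% of its span, with a p of 5e-37. RBM15, VIRMA and ZC3H13 belong to the complex that writes m6A, another mark of messenger RNA, and had 5, 4 and 4 peaks. ADAR, which converts adenosine to inosine, had 3 peaks, the longest of 1139 bases. The median over members with a peak was 1, as over all protein-coding genes.

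Scaffolds and signalling genes combined a high share with many peaks per gene, set beside all protein-coding genes and not beside genes of equal span. Both values rose with span over all protein-coding genes, as given above. Cytoskeletal and adhesion scaffolds had a peak in 41 of 63 genes (65.1%, 52.0% to 76.7%), and 78.0% of these had 2 or more, with a median of 3. That list was chosen with earlier results of these data known and includes MACF1, DST, AHNAK2 and AHNAK, leaders by peaks. Genes of receptor tyrosine kinase and PI3K-mTOR signalling had a peak in 37 of 56 (66.1%, 52.2% to 78.2%) and a median of 2, led by IRS1 with 7 peaks and IRS2, EGFR and IGF1R with 6. Notch and Wnt genes had one in 29 of 56 (51.8%), with 5 peaks each in AXIN2 (a brake on Wnt signalling), BCL9L (a beta-catenin coactivator) and WNT7B (a Wnt ligand), and 4 in the Notch ligand JAG1. Of the 5 in AXIN2, 3 shared bases with a peak of another identifier, and none in BCL9L or WNT7B did. Integrins, collagens and matrix genes had one in 23 of 55 (41.8%), and 87.0% of those had 2 or more. FN1 and THBS1 led these, and ITGA3 and COL18A1 had 6 each. Of the 6 in COL18A1, 2 shared bases with a peak of another identifier, as did 1 of the 10 in THBS1.

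Genes with nuclear functions differed among themselves. Chromatin regulators had a peak in 49 of 77 genes (63.6%, 51.9% to 74.3%), with a median of 3. After CHD7 came ASXL1, a Polycomb-associated protein, and the histone acetyltransferase KAT6A with 8 each, and the acetyltransferase CREBBP with 7. Nucleolar ribosome biogenesis genes had a peak in 35 of 54 (64.8%, 50.6% to 77.3%), with 5 in POLR1A, the largest subunit of RNA polymerase I. Splicing factors and hnRNPs had one in 24 of 65 (36.9%), and 12.5% of those had 2 or more. SON, a nuclear speckle protein, led them with 6 peaks, none beyond the midpoint of its span, and HNRNPF had a single peak of 1105 bases.

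Immediate-early and AP-1 genes had a peak in 21 of 35 (60.0%, 42.1% to 76.1%). Immediate-early genes answer growth signals within minutes, and the list also held SOX9, which is not of that class. Of the 45 peaks of the list 6 (13.3%) lay in the last 10%, beside 42.0% for all protein-coding genes. Spans were 3.26 kb in JUN, 5.40 kb in SOX9, 8.59 kb in ZFP36L1 and 24.5 kb in FOSL2. Shares in the last 10% were nowhere compared between groups of genes at equal span. ZFP36L1, which binds AU-rich elements, had 5 peaks over 2104 bases. JUN and FOSL2 had 4, and SOX9 had 3. Chaperones and co-chaperones had a peak in 35 of 58 (60.3%, 46.6% to 73.0%). HSP90AB1, the constitutive HSP90 chaperone, had 2 peaks of 656 and 239 bases, the first in 5 blocks. DNAJB1, an HSP70 partner, had 3 peaks, all in the last 10%.

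Translation and growth genes were less uniform. Cytosolic ribosomal protein genes had a peak in 37 of 79 (46.8%, 35.5% to 58.4%), and 16.7% of their peaks lay in the last 10%. RPL7A had 4 peaks, RPL38 and RPS3A had 3. These genes have many near-identical processed copies, so the assignment of their reads is uncertain. Translation factors had a peak in 20 of 45 (44.4%), with 5 in PABPC1, the poly(A)-binding protein, and 4 each in EIF3A and EIF4G1. Cell cycle genes had one in 17 of 49 (34.7%), DNA replication and repair genes in 18 of 50 (36.0%) and genes of the p53 pathway and apoptosis in 16 of 35 (45.7%). CCND1 with 8 peaks and CDK6 with 6 led the cell cycle list. The deposited p-values of the CDK6 peaks ran from 0.0016 to 0.027, while CCND1 had a peak with a p listed at 0. MSH6, a mismatch repair protein, had 5 peaks, and the CDK inhibitor gene CDKN1A had 3. Proteasome and ubiquitin genes had one in 22 of 53 (41.5%), with 3 each in CUL1 and USP22 and 2 in FBXW7.

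Metabolic genes were split. Glycolysis and glucose transport genes had a peak in 11 of 28 (39.3%, 21.5% to 59.4%), with 5 in PFKFB3, a regulator of glycolytic flux, and 2 each in the glucose transporters SLC2A1 and SLC2A3. Fatty acid and sterol synthesis genes had one in 18 of 38 (47.4%), and 5 of 38 (13.2%) had one with a p of at most 1e-08, below the 15.9% of all protein-coding genes under that bound. SQLE and ACLY had 3 each. Nuclear genes for oxidative phosphorylation subunits had a peak in 3 of 45, or 6.67% (1.40% to 18.3%), namely ATP5F1C, COX6C and UQCRFS1 with 1 each. KHK, the fructose kinase ketohexokinase, had 1 peak of 181 bases at chr2:27087077-27087257 with a p of 0.0012.

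Several mitochondrially encoded genes were covered over most of their length. The mitochondrial genome held 18 peaks in 14 identifiers, none of them gapped, and 12 had a p listed at 0. Of 15 mitochondrially encoded genes in the list, 10 had a named peak and the other 5 (ND4, ND4L, COX3, ATP6 and ATP8) were touched by peaks that could not be assigned to 1 gene. The respiratory chain genes CYTB and ND6 were covered over 100% of their spans, ND1 over 96.9%, ND2 over 91.5%, COX2 over 82.6% and ND3 over 50.3%. The ribosomal RNA genes RNR1 and RNR2 had 2 peaks each, over 37.6% and 21.2% of their spans. ND6 lies on the other strand from the rest of these genes. Whether reads were resolved by strand there was not tested.

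Replication-dependent histone genes had no named peak, 0 of 45, with an exact upper bound of 7.87%. They encode the core histones made during DNA synthesis. H2BC5 was touched without a unique name. No comparison with genes of equal span was made. In the shortest 10% of all protein-coding genes 9.06% had a named peak. HOX genes had a peak in 4 of 40 (10%, 2.79% to 23.7%), and HOXB8 had 3 of their 6 peaks. Once overlapping peaks were joined HOXB8 had 2, and no HOX gene had a peak with a p of at most 1e-08. Interferon response and antigen presentation genes had one in 14 of 40 (35.0%), with a median of 1, and 5 of 40 (12.5%) with a p of at most 1e-08, below the 15.9% of all protein-coding genes. Those with more than 1 were IFNAR1, IFIT3 and TRIM25.

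ZNF zinc finger genes had a peak in 234 of 518 (45.2%, 40.8% to 49.6%), with a median of 2 and 7 each in ZNF608 and ZNF618. RAB GTPases and their partners had one in 29 of 78 (37.2%), led by RAB3B with 8. The deposited p-values of the RAB3B peaks ran from 4.1e-06 to 0.027. Kinesins (12 of 42, 28.6%), TMEM genes (66 of 233, 28.3%) and solute carriers (111 of 398, 27.9%) lay close to the 27.9% of all protein-coding genes. SLC38A10 had 6 peaks and the amino acid transporter SLC7A1 had 5. In all, 27 of 30 lists lay above the background value, and 22 of 30 above the 15.9% reached with a p of at most 1e-08. Of the 30 lists, 24 were picked by hand, symbol by symbol, and the lists were chosen with earlier results of these data known. No list was tested against other genes or compared with genes of equal span. The part of expression level, which the list does not hold, was not tested.

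**Figure D4:**
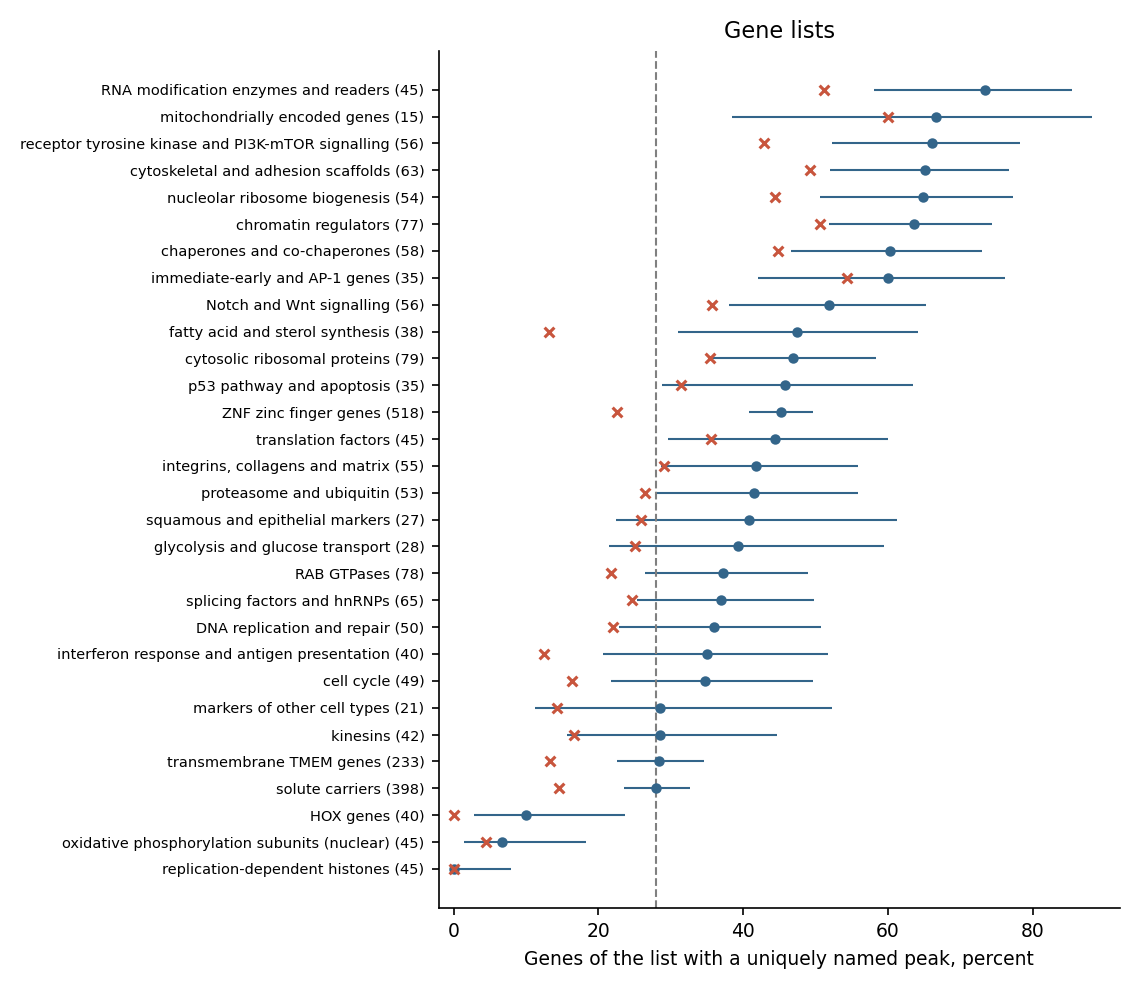
Each blue dot gives the percent of a list's genes (number in brackets) with a uniquely named peak, with its 95% exact binomial interval, each red cross the percent with a peak of p at most 1e-08, and the dashed line the 27.9% of all protein-coding genes. Dots run from 0% in histones to 73.3% in RNA modification enzymes and readers, and solute carriers lie on the line.

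Markers of the cell line and of other cell types were counted as carrying a peak or not, since the list holds no expression level. Of 27 squamous and epithelial markers 11 had a peak (40.7%, 22.4% to 61.2%), among them ITGB4 with 5, CLDN1 with 4 and the keratin KRT19 with 3. TP63 and KRT14 had none. The smallest deposited p was 2.4e-07 in ITGB4, 5e-57 in CLDN1 and 1.6e-34 in KRT19. Of 21 markers of other cell types 6 had a peak (28.6%, 11.3% to 52.2%): HBA2 with 3, HBA1 and HBB with 2, and ALB, APOA1 and GFAP with 1. The intervals of both marker lists contain the 27.9% of all protein-coding genes with a named peak. When no second identifier was allowed in the span, 4 of the 21 markers of other cell types (19.05%) had a peak, beside 27.64% of all protein-coding genes. The summed cover of these 6 genes was 2322 bases. None of these 10 peaks lay in the last 10% of its gene. The 13 markers without any peak included those of leukocytes, endothelium and muscle (PTPRC, CD3E, PECAM1, VWF, CDH5, DES, MYH7), and CD68 and ACTA2 were touched without a unique name.

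HBB and ALB carried peaks with very small p-values. HBB, the beta chain of adult haemoglobin, had a peak of 384 bases with a p listed at 0 and a second of 355 bases in 3 blocks with a p of 1e-122. ALB, serum albumin, had 1 peak of 240 bases in 3 blocks with a p of 1e-201. HBA1 and HBA2, the near-identical alpha chain genes, had smallest p-values of 2e-11 and 8.3e-05, and reads of one can be assigned to the other. None of these peaks shared bases with a peak of another identifier. The source of these transcripts was not tested.

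FOXP1, a forkhead transcription factor, had 1 peak of 331 bases in 2 blocks at chr3:70959215-70966043, at 99.3% of its span, with a p listed at 0. HNRNPUL1, an hnRNP-like RNA-binding protein, had 1 of 240 bases in 2 blocks at chr19:41264696-41264983, at 5.1% of its span, with a p of 6.3e-42.

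Chromosomes differed in the share of protein-coding genes with a peak. Among the chromosomes other than MT, the highest was chromosome 10, with 34.9% (31.4% to 38.4%), and chromosome 9 followed with 33.2% (29.9% to 36.6%). Chromosome 21, with 17.2% (12.6% to 22.5%), and X, with 17.9% (15.4% to 20.7%), had the lowest shares. MT had 8 of 13 (61.5%). Chromosomes 1 (25.5%), 11 (23.1%) and 19 (24.5%) also had intervals below 27.9%, and chromosomes 12 (31.1%) and 17 (32.5%) had intervals above it. Of the nuclear chromosomes, 17 held the most peaks for its number of RefSeq genes, 33.8 per 100, and X the fewest, 12.7. Chromosome 13 had the most peaks per identifier of the nuclear chromosomes (2.05) and chromosome 19 the fewest (1.53).

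Genes with most peaks per chromosome came from several classes. MACF1 led chromosome 1 with 27 of its 1164 peaks, SPTBN1 led chromosome 2 and FAT1 chromosome 4. FLNA had 11 of the 298 peaks on X. ZFHX3, a homeobox and zinc finger factor, led chromosome 16 with 9 peaks, 7 of them in the last 10% of a span of 1109 kb. PRKCA, protein kinase C alpha, led chromosome 17 with 9, of which 6 lay in the last 10%. On chromosome 13 the leader TSC22D1, a transcriptional regulator, had 8 peaks over 3688 bases, 4 in the first 10% and 3 in the last.

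**Figure D5:**
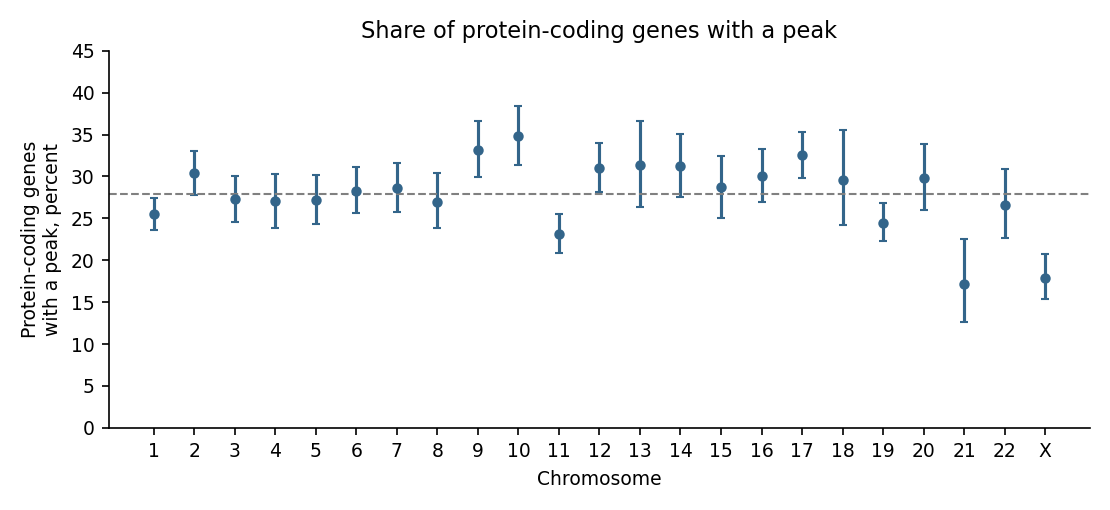
Dots give the percent of each nuclear chromosome's protein-coding genes with a uniquely named peak, the bars are 95% exact binomial intervals, and the dashed line is the 27.9% of all protein-coding genes. Chromosomes 21 and X lie lowest at 17.2% and 17.9%, and chromosome 10 highest at 34.9%.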

How the data were processed

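Of 8 libraries in 4 groups of 2 biological replicates, the SiHa IP and SiHa Input groups enter here, through 1 peak list. Library preparation used a strand-marking kit for messenger RNA, per the labels' protocols. FastQC 0.11.7 and GRCh38 (hg38) come from the submitters' processing notes. Aligner, peak caller, annotation and pooling of replicates: not given in the sources used here. For each peak the authors deposited a p-value; no other unit was used, and peaks were ranked and filtered by it.

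Widths are sums of blocks. Each base was counted once for covered bases. Names came from RefSeq spans (GRCh38.p14, symbols and starts from the same release). An identifier took a name when its peaks touched 1 span alone, either on its strand or of unknown strand. That span also had to hold 90% or more of the bases of those peaks, and no other identifier could have as much there. Place is the midpoint of the blocks from the 5′ end. Named genes are NAT10, FOXP1, KHK and HNRNPUL1, the leaders in peaks, covered bases, longest peak and share of span, mitochondrial genes, the leader of each chromosome and up to 4 members of each list by peaks. Further marker and start-site genes were named after their values were seen. A few genes that meet the rule are not reported here. The members and lists were chosen with earlier results of these data known. Naming, place and overlap were tested on simulated ungapped peaks inside nuclear protein-coding genes of known strand. Short genes, spans of unknown strand and other gene classes were not covered by that simulation. Computation used Python 3.11.15, pandas 2.3.3, NumPy 2.4.6, SciPy 1.17.1 and matplotlib 3.10.9. Alternatives varied the p bound, merging, peak position, naming and start windows.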

Additional observations from a re-analysis of the deposited data

How the results depend on the processing

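Alternatives on the p bound, on merging, on peaks shared by identifiers, on the first run of entries, on joined overlaps and on contigs were applied to the size of the list. The number of peaks was 5576 with a p of at most 1e-08 and 8217 with a p of at most 1e-04, and genes with a peak were 3952 under the stricter bound. The share of genes with 2 or more peaks was 26.95% and 33.58% under these bounds and 38.17% with neighbours within 100 bases merged. The median width was 240 bases as genomic span and 271 with a p of at most 1e-08. The share in the last 10% of the span was 37.87% by the 5′ edge, 43.3% by the 3′ edge, 45.69% in spans of at least 10 kb and 42.19% with a p of at most 1e-08. The share in the first 10% was 9.227%, 5.914% and 6.135% by the 5′ edge, the 3′ edge and the p bound. Genes with a covered start were 228 when 1 base sufficed and 67 when the outermost start alone counted. Leaving out peaks shared by identifiers gave 11513 peaks, and the first run alone 12604. After merging, 16 of the 20 leading genes remained. With a p of at most 1e-08, 15.9% of protein-coding genes had a peak, 22 of 30 lists lay above that value, and 25 lists kept their side. The other 5 fell below it: fatty acid and sterol synthesis (13.2%), interferon response (12.5%), markers of other cell types (14.3%), solute carriers (14.6%) and TMEM genes (13.3%). Joined overlaps, the first run alone and the omission of shared peaks were chosen after seeing the data, as were the outermost start, the p bound on place and merging for width. No paired analysis was possible because the list pools the replicates and no result comes from a test. Depth is unknown, so a gene without a peak is not a gene without ac4C.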
